A study of Mus musculus with 24 samples.

Results

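The genes described here are the liver receptors for leptin and adiponectin, Lepr, Adipor1 and Adipor2, with Stat3, the transcription factor through which leptin acts, and Socs3, its feedback inhibitor. They were chosen by name, with earlier results of these data known, and are 5 of the 23972 genes in the count table. The study asked how the liver transcriptome changes with lipodystrophy and with FGF21, in bulk poly(A) RNA-Seq of 24 livers of female mice fed a high-fat diet at 22°C. All mice carried Lmna fl/fl, with loxP sites around exons 10 and 11. Controls lacked Adipoq-Cre. Lmna ADKO mice carried Adipoq-Cre, which is driven by an adipocyte promoter, so that Lmna is deleted in adipocytes and not in hepatocytes, and the mice lose their fat. Mice were 12 to 14 weeks old at the start, ate the diet for 4 weeks, and then received vehicle or a viral vector for FGF21. Livers were taken 8 weeks later. The groups were 7 controls with vehicle, 3 controls with FGF21, 6 Lmna ADKO mice with vehicle, and 8 Lmna ADKO mice with FGF21. The labels call the treatment a rescue, which was read as FGF21 from the study's methods. Within a group, libraries carry numbers in the order of their records.

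Leptin and adiponectin are hormones made by adipocytes, and both are scarce when fat is lost. Leptin binds LEPR, which activates the kinase JAK2. The long form of the receptor then recruits STAT3, which enters the nucleus and induces, among other genes, Socs3, whose product blocks the receptor again. In the liver, the receptor also occurs as short forms, and liver is a source of the soluble receptor that binds leptin in blood. Adiponectin binds ADIPOR1 and ADIPOR2, receptors of the PAQR family that hydrolyse ceramides. ADIPOR1 is best known for activating AMP-activated protein kinase (AMPK) and ADIPOR2 for raising the activity of PPARα, both of which favour fatty acid oxidation.

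The forms of the leptin receptor share an extracellular part and differ in their tails. They are shown because the deposited values are counts per gene and do not separate the forms, so that all statements on Lepr below are on their sum. In the GENCODE M21 annotation of GRCm38, 3 coding transcripts share their first 2667 coding bases. Lower case gives the last 30 shared bases and capitals the bases that follow in each form, the first 60 of 822 in Lepr-201 and all bases up to and including the stop codon in the other forms.

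Lepr-201: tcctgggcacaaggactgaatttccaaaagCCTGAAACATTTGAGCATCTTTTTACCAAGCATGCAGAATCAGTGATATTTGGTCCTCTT

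Lepr-202: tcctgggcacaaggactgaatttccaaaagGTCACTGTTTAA

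Lepr-203: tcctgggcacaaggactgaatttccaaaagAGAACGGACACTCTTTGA

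Lepr-201 encodes the long form of 1162 residues, which alone holds the tail that docks STAT3. Lepr-202 and Lepr-203 encode short forms of 892 and 894 residues. The gene (ENSMUSG00000057722) lies on the plus strand at chr4:101717404-101815352.

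Lepr had lower levels in Lmna ADKO livers than in control livers, with either treatment. With vehicle, control livers held 6.09 CPM (counts scaled to library size, by edgeR's TMM method) at the lowest, 33.6 at the median, and 77.5 at the highest. Lmna ADKO livers with vehicle held 3.51, 5.72, and 8.35 CPM at the lowest, median, and highest. Thus, each of the 6 Lmna ADKO libraries had less than the control median, 3 of them lay below every control, and the groups overlapped through control library 7. The means were 37.5 ± 27.5 CPM (SD, n = 7) and 5.88 ± 2.20 CPM (SD, n = 6), and the log2 fold change was -2.67 (SE, the standard error, 0.516, adjusted p = 0.0012 by edgeR's quasi-likelihood test, with the Benjamini-Hochberg adjustment over all 23972 genes). Lepr was the only 1 of the 5 genes with an adjusted p under 0.05 in this contrast, the threshold for a gene that passed throughout, and 15.1% of all genes passed. Of all genes, 6.76% passed with lower and 8.35% with higher levels in Lmna ADKO livers.

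With FGF21, the 3 control livers held 60.7, 63.1, and 19.0 CPM of Lepr. The 8 Lmna ADKO livers held 3.19, 5.22, and 9.53 CPM at the lowest, median, and highest. These groups did not overlap, as was so for 5.35% of all genes in this contrast. The means were 47.6 ± 24.8 CPM (SD, n = 3) and 5.68 ± 2.32 CPM (SD, n = 8), with a log2 fold change of -3.06 (SE 0.538, edgeR's adjusted p = 0.0026). Again Lepr alone of the 5 genes passed, in a contrast in which 3.85% of all genes passed and 1.71% of all genes passed with lower levels. Across both treatments, 8 of 10 control libraries lay above the highest Lmna ADKO library.

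Control livers differed from each other in Lepr more than Lmna ADKO livers did. The highest vehicle control held 12.7-fold the CPM of the lowest, against 2.38-fold among Lmna ADKO livers with vehicle and 2.99-fold among those with FGF21. Control libraries 5 and 7 with vehicle, at 8.90 and 6.09 CPM, lay at or near the level of the Lmna ADKO livers, whereas the other 5 ranged from 25.1 to 77.5 CPM. The counts behind these values were 63 to 206 per Lmna ADKO library with FGF21, 78 to 200 with vehicle, and 125 to 1593 per vehicle control. In bulk RNA, fewer cells of a type that expresses a gene and less RNA of that gene per cell cannot be told apart.

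The sample numbers in the labels fall into a series of 3 digits and a series of 4, which go unevenly with genotype in the vehicle groups. Of the vehicle controls, 6 had 3 digits, against 1 of the Lmna ADKO mice with vehicle. Within the 3-digit series, the 6 controls held 8.90 to 77.5 CPM of Lepr and the 1 Lmna ADKO liver 4.72 CPM. Within the 4-digit series, the 1 vehicle control was library 7, the lowest of all controls at 6.09 CPM, and it lay inside the range of the 5 Lmna ADKO livers, 3.51 to 8.35 CPM. The 4-digit vehicle libraries alone thus showed no gap in Lepr between genotypes, and with 1 library on one side neither series gives a test. With the number series as a covariate, the log2 fold change was -2.35 with vehicle (edgeR's adjusted p = 0.0366) and -3.25 with FGF21 (edgeR's adjusted p = 0.00733). The 3 FGF21-treated controls all had 4 digits, and against the 4 Lmna ADKO livers of that series the contrast with FGF21 gave -3.07 (edgeR's adjusted p = 0.01). What the number series stands for is not given in the labels, and its part in the vehicle contrast was not tested beyond the covariate.

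**Figure D1:**
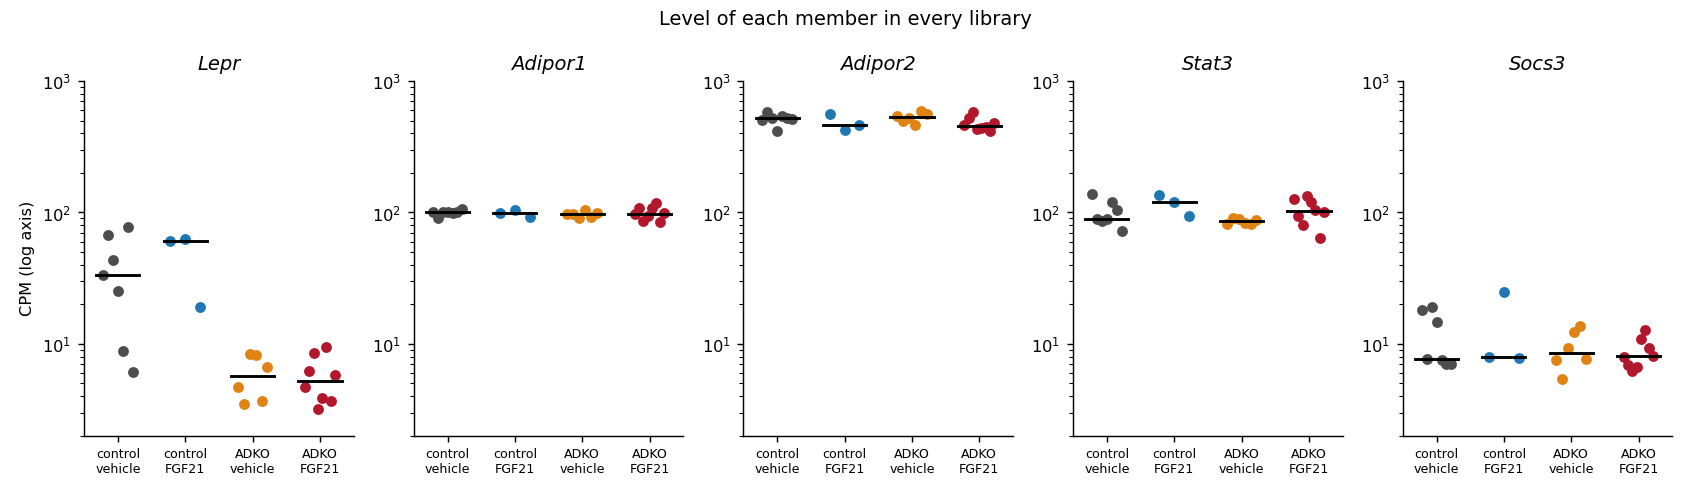
CPM on a log axis for the 5 genes, with 1 point per library (control vehicle n = 7, control FGF21 n = 3, Lmna ADKO vehicle n = 6, Lmna ADKO FGF21 n = 8) and a line at each group's median. Lepr sits between 3.19 and 9.53 CPM in all Lmna ADKO livers and reaches 77.5 CPM in controls, while the groups overlap for each of the other genes.

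FGF21 was not followed by a detectable change in Lepr. In controls, the log2 fold change of FGF21 against vehicle was 0.35 (SE 0.566, edgeR's adjusted p = 0.886), and in Lmna ADKO livers it was -0.05 (SE 0.490, edgeR's adjusted p = 0.995). The interaction, which tests whether the genotype difference in Lepr itself differed with treatment, was -0.39 on the log2 scale (SE 0.751, edgeR's adjusted p = 1.0).

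Leprot, the gene next to Lepr on chr4, encodes a small membrane protein that limits the receptor's display on the cell surface. With vehicle, its mean level was 19.8 ± 1.94 CPM (SD, n = 7) in controls, against 20.8 ± 2.78 CPM (SD, n = 6) with Lmna ADKO, and it did not pass (log2 fold change 0.07, SE 0.105, edgeR's adjusted p = 0.740). The gene spans chr4:101647718-101659364 and shares no bases with Lepr in this annotation. The log2 ratio of Lepr to Leprot within a library was 0.45 ± 1.40 (SD, n = 7) in vehicle controls and -1.88 ± 0.450 (SD, n = 6) in Lmna ADKO livers with vehicle. The means differed by -2.33 (exact two-sided permutation test, p = 0.00233, adjusted p = 0.028 over the 12 comparisons of 3 ratios in 4 contrasts). Vehicle controls ranged from -1.51 to 2.08, and the lowest, control library 7, lay within the Lmna ADKO range of -2.32 to -1.34. With FGF21, the difference was -2.98 (exact two-sided permutation test, p = 0.0121, the smallest that 8 against 3 libraries allow, adjusted p = 0.0727). After adjustment, the ratio therefore passed with vehicle and did not pass with FGF21.

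The genes whose log2 CPM was most like that of Lepr over the 24 libraries were B930025P03Rik (Pearson r 0.86) and Wnk4 (0.84), a kinase that regulates ion transport. Both correlations include the difference between genotypes. Within the 10 control libraries r was 0.89 for B930025P03Rik and 0.84 for Wnk4, and within the 14 Lmna ADKO libraries it was 0.06 and -0.25. These are descriptions over libraries that share depth and preparation. Both genes were chosen by their likeness to Lepr over these same libraries. Their own falls with genotype, given next, follow in part from that choice and add no separate evidence. B930025P03Rik fell in Lmna ADKO livers with vehicle (log2 fold change -2.34, edgeR's adjusted p = 0.00177), as did Wnk4 (-1.13, edgeR's adjusted p = 0.00511). With FGF21, Wnk4 passed (-1.73, edgeR's adjusted p = 0.00141) and B930025P03Rik did not (-1.62, edgeR's adjusted p = 0.0903). Both are weakly expressed, with vehicle control means of 3.20 and 1.56 CPM.

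The adiponectin receptors were expressed at higher and much steadier levels than Lepr. Adipor1 (ENSMUSG00000026457, chr1:134415378-134433351, plus strand) ranged from 91.5 to 106 CPM in vehicle controls, with a median of 100.5, and from 90.6 to 104 CPM in Lmna ADKO livers with vehicle, with a median of 97.0. The 3 FGF21-treated controls held 98.5, 105, and 92.1 CPM, and the 8 FGF21-treated Lmna ADKO livers held 85.0 CPM at the lowest, 98.1 at the median, and 118 at the highest. All groups overlapped, and the highest vehicle control held only 1.15-fold the CPM of the lowest. The log2 fold change of Lmna ADKO against control was -0.05 with vehicle (SE 0.0846, edgeR's adjusted p = 0.764) and 0.01 with FGF21 (SE 0.103, edgeR's adjusted p = 0.982). Its sign with FGF21 was negative with DESeq2.

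Adipor2 (ENSMUSG00000030168, chr6:119353150-119417704, minus strand) was the most abundant of the 5 genes. Vehicle controls held 417 CPM at the lowest, 519 at the median, and 579 at the highest, and Lmna ADKO livers with vehicle held 466.1, 533, and 596 CPM. The genotype contrast was 0.05 with vehicle (log2 fold change, SE 0.103, edgeR's adjusted p = 0.824) and -0.03 with FGF21 (SE 0.126, edgeR's adjusted p = 0.947). Thus, neither adiponectin receptor showed a genotype difference beyond the spread between libraries.

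With FGF21, Lmna ADKO livers held 416 CPM of Adipor2 at the lowest, 455 at the median, and 578 at the highest. Of these 8 libraries, 7 lay below the median of Lmna ADKO livers with vehicle and 5 lay below all of them. The log2 fold change of FGF21 against vehicle was -0.17 (SE 0.1001, edgeR's adjusted p = 0.725) and did not pass. The log2 ratio of Adipor2 to Adipor1 was 2.46 ± 0.179 (SD, n = 6) with vehicle and 2.25 ± 0.241 (SD, n = 8) with FGF21 in Lmna ADKO livers. This difference of -0.21 did not pass either (exact two-sided permutation test, p = 0.0979, adjusted p = 0.392 over the 12 comparisons). Without Lmna ADKO FGF21 library 3, whose ratio was the highest of its group, the exact permutation test gave p = 0.0117, and without Lmna ADKO vehicle library 4 it gave p = 0.0404, both before adjustment. These were 2 of 14 runs that each left out 1 library, and in the other 12 the unadjusted p was not under 0.05.

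**Figure D2:**
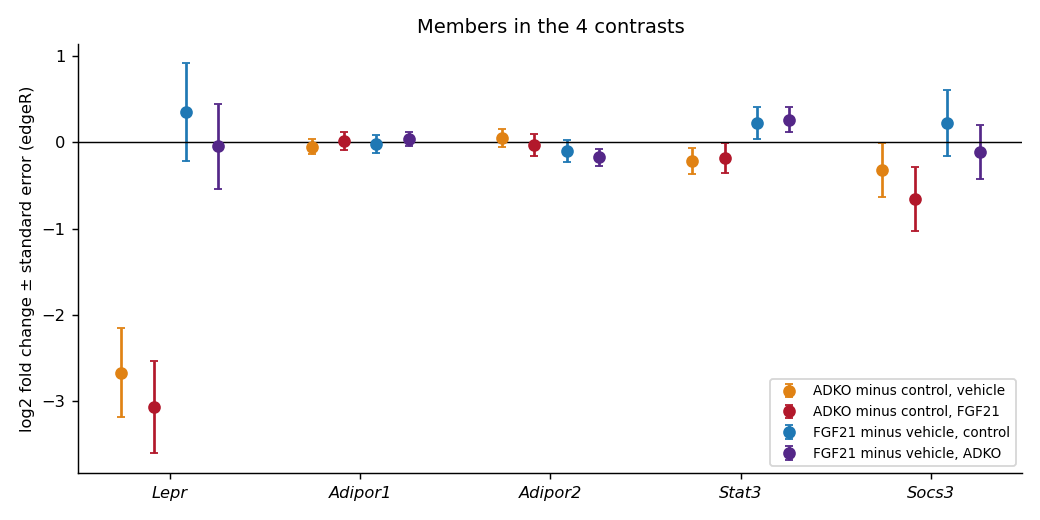
Log2 fold change (points) and SE (bars) from edgeR for the 5 genes in the 4 contrasts, from 1 fit of all 24 libraries. Lepr lies at -2.67 and -3.06 in the contrasts of genotype, and all other points lie between -0.65 and 0.35.

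Levels of different genes were also compared per kilobase of exonic sequence, the union of all annotated exons of a gene. A single transcript can be shorter than this union, so that the order below is approximate. By this measure, Adipor2 led in vehicle controls at 86.0 ± 8.23 CPM per kb (SD, n = 7). Adipor1 followed at 19.9 ± 0.852, then Stat3 at 10.5 ± 2.38, Lepr at 5.31 ± 3.90, and Socs3 at 4.01 ± 1.91 CPM per kb (SD, n = 7 each). The range of Lepr overlapped those of Stat3 and of Socs3, whereas the ranges of Stat3 and Socs3 did not overlap, and Lepr and Socs3 could not be set apart by their spread. In Lmna ADKO livers with vehicle, the same measure was 0.834 ± 0.312 CPM per kb for Lepr (SD, n = 6) and 3.22 ± 1.09 for Socs3 (SD, n = 6), so that Lepr was then the lowest of the 5.

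Stat3 (ENSMUSG00000004040, chr11:100885098-100939540, minus strand) shares 72 bases of exon with Stat5a on the opposite strand. Vehicle controls held 72.2 CPM at the lowest, 89.6 at the median, and 138 at the highest, against 81.0, 85.8, and 90.8 CPM in Lmna ADKO livers with vehicle. The 3 FGF21-treated controls held 136, 121, and 93.8 CPM, and the 8 FGF21-treated Lmna ADKO livers held 64.1, 103, and 134 CPM at the lowest, median, and highest. All groups overlapped. The log2 fold change was -0.22 for genotype with vehicle (SE 0.149, edgeR's adjusted p = 0.368) and -0.18 with FGF21 (SE 0.179, edgeR's adjusted p = 0.651). It was 0.23 for FGF21 in controls (SE 0.182, edgeR's adjusted p = 0.797) and 0.26 for FGF21 in Lmna ADKO livers (SE 0.145, edgeR's adjusted p = 0.710), where 6 of 8 treated libraries lay above every vehicle library and the other 2 lay below every one. The lowest, library 7 at 64.1 CPM, is 1 of 3 libraries, described below, in which levels fell with gene length relative to the others. Stat3 has 9527 exonic bases, and the part of length in this level was not tested.

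Socs3 (ENSMUSG00000053113, chr11:117966079-117970047, minus strand) was low in most livers and high in a few. The 7 vehicle controls held 6.97 CPM at the lowest, 7.69 at the median, and 19.1 at the highest, with 3 of them between 14.6 and 19.1 CPM. Lmna ADKO livers with vehicle held 5.36, 8.48, and 13.7 CPM at the lowest, median, and highest. The log2 fold change between them was -0.32 (SE 0.316, edgeR's adjusted p = 0.557), so that Socs3 did not pass.

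In the FGF21-treated controls, Socs3 stood at 7.94, 24.8, and 7.86 CPM, and library 2 alone set the group mean of 13.5 ± 9.74 CPM (SD, n = 3). FGF21-treated Lmna ADKO livers held 6.22 CPM at the lowest, 8.03 at the median, and 12.8 at the highest. The log2 fold change for genotype with FGF21 was -0.65 (SE 0.373, edgeR's adjusted p = 0.399), and it was 0.12 without control FGF21 library 2. FGF21 against vehicle gave 0.22 in controls (SE 0.385, edgeR's adjusted p = 0.897), which became -0.55 without that library, and -0.11 in Lmna ADKO livers (SE 0.308, edgeR's adjusted p = 0.972). No direction is given for Socs3 in contrasts that use the treated controls.

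The promoter of Socs3 is shown because STAT3 binds a palindrome of the form TTCNNNGAA, and because it is the only 1 of the 7 RefSeq promoter windows of the 5 genes that holds this form. The window spans chr11:117969317-117969616 of GRCm38.p6 on the minus strand, from 250 bases before to 50 after the start, and capitals mark the match.

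Socs3: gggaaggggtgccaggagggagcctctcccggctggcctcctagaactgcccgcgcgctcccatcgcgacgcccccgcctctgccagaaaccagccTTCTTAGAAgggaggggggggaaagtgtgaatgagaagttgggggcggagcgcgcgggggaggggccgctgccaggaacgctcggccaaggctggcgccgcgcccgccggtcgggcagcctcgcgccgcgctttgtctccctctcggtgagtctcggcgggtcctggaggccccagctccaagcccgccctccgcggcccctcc

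The form occurs on either strand in 8.3% of the 32851 promoters of the same length. The FOXO form GTAAACA, searched on both strands, was found in 1 window each of Adipor1 and Adipor2, against 3.65% of all promoters, and the CRE form TGACGTCA, found in 1.79% of all promoters, was in none of the 7 windows. A match describes letters in a window and says nothing on binding in these livers.

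The genes most like the other members were named in the same way, as a description. Over the 24 libraries, Adhfe1 (r 0.80) was among those nearest to Adipor1, those nearest to Adipor2 were Pygl (0.77), the liver glycogen phosphorylase, and Palld (0.75), and those nearest to Stat3 were Slc7a5 (0.80), an amino acid transporter, and Slc39a14 (0.79), a zinc and iron transporter. Nearest to Socs3 were Junb (0.77), an AP-1 subunit, and Ctsl (0.66), a lysosomal protease. Of these 7 genes, Slc7a5 alone passed in any of the 4 contrasts, and it fell in Lmna ADKO livers with vehicle (log2 fold change -0.58, edgeR's adjusted p = 0.0271).

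The hormones themselves were close to absent from liver RNA. Lep had 0 counts in 23 of 24 libraries and 4 counts, or 0.19 CPM, in FGF21-treated control library 1. Adipoq had 0 counts in 15 libraries and at most 13 counts, or 0.609 CPM. The summed level of the 5 adipocyte markers was at most 3.95 CPM in any library.

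The next genes were taken from lists of the pathways around these receptors. Their counts of genes that passed for genotype stand beside 15.1% of all genes with vehicle and 3.85% with FGF21. These shares include many weakly expressed genes. Among the 14699 genes kept by edgeR's expression filter, 4048 passed with vehicle and 1317 with FGF21, a larger share in both contrasts. Of the 10 genes of proximal leptin receptor signalling, 2 fell and 0 rose in Lmna ADKO livers with vehicle, with a list median log2 fold change of 0.03, beside -0.01 over the 12492 genes whose log2 CPM averaged 0 or more. Irs2, an insulin receptor substrate that leptin signalling also engages, held 20.7 ± 3.74 CPM (SD, n = 7) in controls, against 11.0 ± 2.38 CPM (SD, n = 6) in Lmna ADKO livers. It fell without overlap between the groups, as 7.95% of all genes differed without overlap in this contrast (log2 fold change -0.92, SE 0.230, edgeR's adjusted p = 0.0072). Sh2b1, an adaptor that enhances JAK2 activity at the receptor, also fell (log2 fold change -0.38, SE 0.105, edgeR's adjusted p = 0.0125). Jak2 (0.13, edgeR's adjusted p = 0.440) and Ptpn1, the phosphatase that opposes it (0.10, edgeR's adjusted p = 0.460), did not pass. With FGF21, the list's largest genotype difference was that of Irs2 (-0.41, edgeR's adjusted p = 0.456), which did not pass.

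Among 20 other receptors, kinases, and feedback genes that lead to STAT3, 3 fell and 1 rose with vehicle, and the list median was -0.09. Lifr, the receptor for leukaemia inhibitory factor, was 103, 133, and 161 CPM in controls and 45.5, 52.2, and 61.2 CPM in Lmna ADKO livers at the lowest, median, and highest. These vehicle groups did not overlap, as was so for 7.95% of all genes. It fell with vehicle (log2 fold change -1.34, SE 0.119, edgeR's adjusted p = 1.19e-08) and with FGF21 (-1.01, SE 0.135, edgeR's adjusted p = 4.14e-05). Cish, a SOCS family gene induced by STAT5, fell with vehicle (-1.32, edgeR's adjusted p = 0.005, and 0.0564 with the number series of the samples as a covariate), as did Il11ra1, the receptor for interleukin 11 (-0.51, edgeR's adjusted p = 0.0171). Osmr, the oncostatin M receptor, rose (0.62, edgeR's adjusted p = 0.00708). Il6st, the shared subunit gp130 through which interleukin 6 reaches STAT3, did not pass (-0.01, edgeR's adjusted p = 0.989).

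STAT3 target genes of the liver moved in both directions. With vehicle, 5 of 25 fell and 2 rose, and the list median was -0.21. The genes that rose were Cebpd, a transcription factor of the acute phase (log2 fold change 1.17, edgeR's adjusted p = 0.000452), and Myc, a driver of cell growth (0.95, edgeR's adjusted p = 0.00215). The genes that fell were Itih4, an inhibitor heavy chain of plasma (-0.65, edgeR's adjusted p = 0.00563), the fibrinogen chain gene Fgb (-0.61, edgeR's adjusted p = 0.00544), the other fibrinogen genes Fga (-0.51) and Fgg (-0.57), and Bcl3 (-0.48), a regulator of NF-κB. The acute phase gene Saa1 had medians of 62.0 CPM in controls and 119 CPM in Lmna ADKO livers, with 1 control at 1691 CPM, and its fitted log2 fold change was -1.22 (SE 0.780, edgeR's adjusted p = 0.336), which did not pass. With FGF21, the list median was -0.36, and 6 of the 25 log2 fold changes were positive. Of the 25, 8 had an unadjusted p under 0.05 by edgeR. Myc alone passed there (1.03, edgeR's adjusted p = 0.0298). It did not pass without any 1 of the 3 treated controls (adjusted p 0.0615, 0.106, and 0.159 from edgeR) or without FGF21-treated Lmna ADKO library 3 (0.0576).

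Around the adiponectin receptors, 9 of 18 genes passed with vehicle, 6 of them higher, with a list median of 0.18. Acer2, a ceramidase, rose without overlap between the groups, as 7.95% of all genes differed, from a control median of 11.7 CPM to 26.1 CPM (log2 fold change 1.03, SE 0.141, edgeR's adjusted p = 9.15e-06). The ceramidase genes Acer3 (0.41) and Asah1 (0.34) also rose, as did Appl1 (0.54), the adaptor that binds both adiponectin receptors. The β subunits of AMPK moved in opposite directions. Prkab2 rose (0.77, SE 0.172, edgeR's adjusted p = 0.00241), and Prkab1, which is the more abundant of the pair in these livers, fell (-0.58, SE 0.104, edgeR's adjusted p = 0.000279). Prkaa2, a catalytic subunit, rose (0.40), while the upstream kinase genes Stk11 (-0.55, edgeR's adjusted p = 6.68e-05) and Camkk2 (-0.45) fell. Ppara did not pass (0.44, SE 0.286, edgeR's adjusted p = 0.342). With FGF21, Cdh13, which encodes the adiponectin-binding protein T-cadherin, was the 1 gene of the list that passed (-0.81, edgeR's adjusted p = 0.0268), and it did not pass without control FGF21 library 1 (adjusted p = 0.0997) or library 2 (adjusted p = 0.138). Of the 9 other PAQR family receptors, Mmd alone passed with vehicle (-0.33, edgeR's adjusted p = 0.022), and it did not pass when any of 4 libraries was left out.

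**Figure D3:**
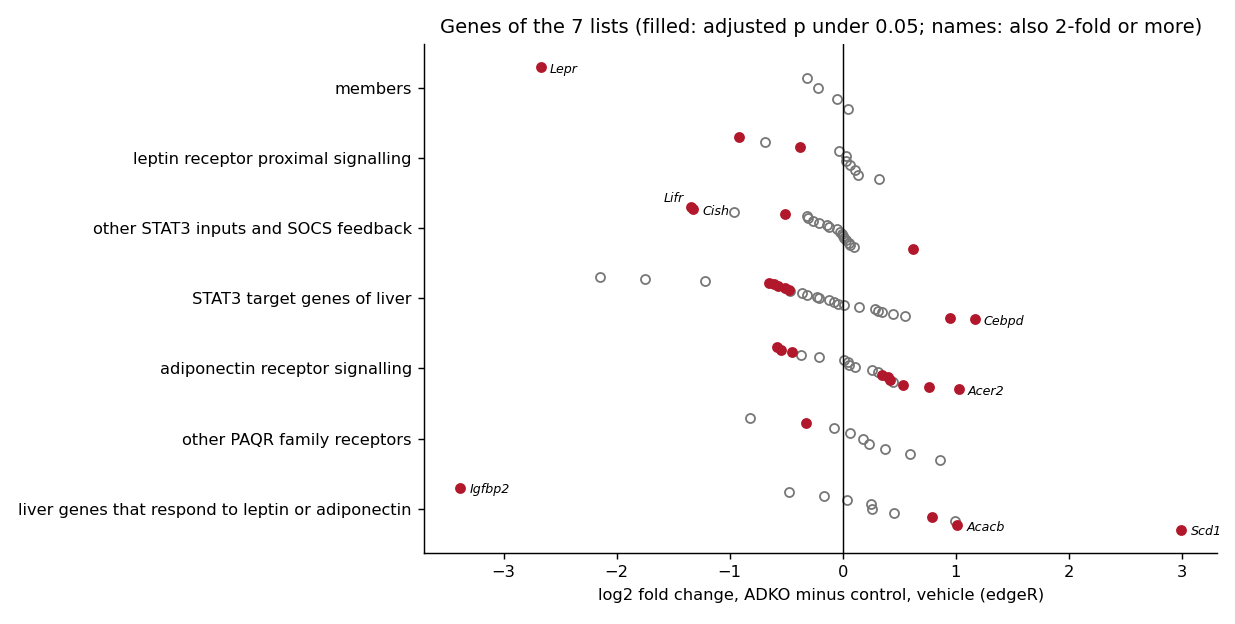
Log2 fold change from edgeR of Lmna ADKO against control with vehicle, for the 5 genes described here (members) and the 6 lists around them, with 1 point per gene, filled where the adjusted p is under 0.05. Lepr and Igfbp2 lie furthest to the left at -2.67 and -3.38, Scd1 furthest to the right at 3.00.

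With vehicle, the largest differences among listed genes that passed were those of Igfbp2 and Scd1, of the genes known to respond to leptin or adiponectin in liver. In this list, 3 of 11 rose and 1 fell, and the list median was 0.26. Igfbp2, an insulin-like growth factor binding protein that leptin induces in mouse liver, held 283, 786, and 856 CPM in controls and 23.5, 58.8, and 113 CPM in Lmna ADKO livers at the lowest, median, and highest. It fell with vehicle (log2 fold change -3.38, SE 0.411, edgeR's adjusted p = 8.94e-06) and with FGF21 (-2.83, SE 0.412, edgeR's adjusted p = 0.000393). Scd1, the stearoyl-CoA desaturase that leptin represses, held 65.1, 898, and 1895 CPM in controls and 3421, 7260, and 8472 CPM in Lmna ADKO livers. It rose with vehicle (3.00, SE 0.561, edgeR's adjusted p = 0.000871) and with FGF21 (4.16, SE 0.840, edgeR's adjusted p = 0.00673), though with FGF21 it did not pass without control FGF21 library 3 (adjusted p = 0.0583). Acacb, an acetyl-CoA carboxylase (1.01, edgeR's adjusted p = 0.0116), and Ucp2, a mitochondrial carrier (0.79, edgeR's adjusted p = 0.0255), rose with vehicle. Ucp2 did not pass without Lmna ADKO vehicle library 6 (adjusted p = 0.096) or control vehicle library 6 (adjusted p = 0.053).

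Control livers that were low in Lepr were in part low in Igfbp2. Vehicle control libraries 5 and 7, the lowest of the 10 controls in Lepr, were also the lowest in Igfbp2, at 283 and 312 CPM. FGF21-treated control library 3, the next lowest in Lepr at 19.0 CPM, was instead the highest of the 10 in Igfbp2, at 1002 CPM. This library is 1 of the 3, described below, in which levels fell with gene length relative to the others. Lepr, with 7049 exonic bases, is longer than Igfbp2, with 1847, and the part of length in these 2 levels was not tested. Even the lowest control in Igfbp2 stood above the highest Lmna ADKO liver, whereas for Lepr these levels met. Of all genes, 7.95% did not overlap between genotypes with vehicle and 5.35% with FGF21.

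**Figure D4:**
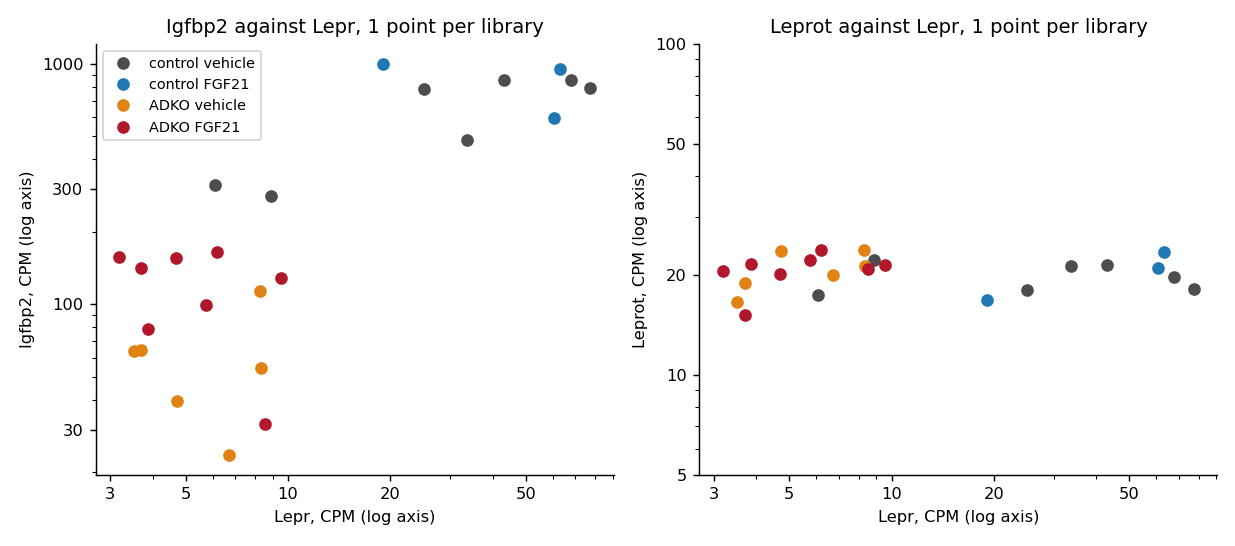
CPM of Igfbp2 (left) and Leprot (right) against CPM of Lepr, on log axes, with 1 point per library coloured by group. Vehicle controls 5 and 7 lie near the Lmna ADKO libraries in Lepr, and Leprot stays between 15.2 and 23.8 CPM at every level of Lepr.

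Of the 100 genes in all lists, the 5 members and the hormones included, 28 passed in the contrast of genotype with vehicle and 6 with FGF21. Over all genes, 15.1% passed with vehicle and 3.85% with FGF21. Of the 100 listed genes, 94 averaged 0 or more in log2 CPM. Among the 14699 genes kept by edgeR's expression filter and fitted alone, 4048 passed with vehicle and 1317 with FGF21. The lists as a set were not tested against these shares. FGF21 against vehicle gave fewer calls. In controls, 0 of the 5 members passed by edgeR, where 0.0542% of all genes passed, and 0 had an unadjusted p under 0.05, also with DESeq2. In Lmna ADKO livers, 0 of the 5 members passed by edgeR, where 0.0% of all genes passed, and 0 had an unadjusted p under 0.05. With DESeq2, also 0 passed there and 1, Adipor2, had an unadjusted p under 0.05. In the test of the interaction, in which 0.00417% of all genes passed by edgeR, 0 of the 5 passed with either tool and 0 had an unadjusted p under 0.05. Cebpd was the 1 gene of the 100 that passed with FGF21 in controls, at 13.4, 15.4, and 16.3 CPM with FGF21 and 4.36, 5.95, and 7.25 CPM at the lowest, median, and highest with vehicle (log2 fold change 1.38, SE 0.253, edgeR's adjusted p = 0.0268). It did not pass in 9 of the 10 fits that each left out 1 of these libraries.

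Several facts of the libraries bear on these values. Between 19863304 and 21510054 reads were counted on genes per library. Lmna was detected in every liver and was higher in Lmna ADKO livers with vehicle (log2 fold change 0.52, edgeR's adjusted p = 0.00322), and Fgf21 counts did not set the treated groups apart (0.24 in controls and -0.58 in Lmna ADKO livers, adjusted p = 0.925 and 0.730 from edgeR). In 3 libraries, vehicle control 3, FGF21-treated control 3, and FGF21-treated Lmna ADKO 7, levels fell with gene length relative to the others. Without them, Lepr gave -2.62 with vehicle (edgeR's adjusted p = 0.00193) and -3.37 with FGF21 (edgeR's adjusted p = 0.00756).

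Hepatocyte markers were abundant in every library, as the tissue label implies. Of the 4 measured, 1 was lower in Lmna ADKO livers with vehicle, with summed levels of 63637 to 97100 CPM, against 70984 to 126859 CPM in controls. Of 6 stellate cell markers, 2 were higher with vehicle, and their sum ranged from 249 to 342 CPM in Lmna ADKO livers and from 196 to 249.8 CPM in controls. Of 5 sinusoidal endothelial markers, 2 were higher and 1 was lower, with sums of 178 to 228 CPM and 194 to 244 CPM. With FGF21, 0 hepatocyte, 0 stellate, and 1 endothelial marker passed by edgeR, the last with a higher level, while 1, 3, and 2 had an unadjusted p under 0.05. The endothelial sums there were 182 to 239 CPM in Lmna ADKO livers and 249 to 257 CPM in controls. The stellate sums were 239 to 362 CPM and 223 to 234 CPM. Neither sum overlapped between genotypes, as was so for 5.35% of all single genes in this contrast. A sum follows its most abundant marker most, such as Dcn, at up to 226 CPM, in the stellate list. The hepatocyte sums were 63510 to 133786 CPM and 102979 to 107137 CPM. None of the markers of these 3 lists was at 0 in any library.

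Of 7 Kupffer cell and macrophage markers, 1 was higher with vehicle, with sums of 272 to 482.2 CPM in Lmna ADKO livers and 389 to 554 CPM in controls. Of 4 cholangiocyte markers, 0 passed by edgeR and 2 had an unadjusted p under 0.05. All 4 had positive log2 fold changes, with a median of 0.68, and their sums were 7.06 to 10.1 CPM against 3.74 to 7.96 CPM in controls. Of 4 neutrophil and 4 lymphocyte markers, 0 passed by edgeR, with 0 and 2 at an unadjusted p under 0.05. The neutrophil sums were 3.79 to 7.18 CPM against 1.38 to 12.1 CPM, and the lymphocyte sums 3.33 to 7.41 CPM against 4.18 to 8.26 CPM. With FGF21, no marker of these 4 lists passed by edgeR, and 2 Kupffer cell, 1 cholangiocyte, and 2 neutrophil markers had an unadjusted p under 0.05. The part of any of these cell types in the difference in Lepr was not tested.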

How the data were processed

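Liver RNA-Seq of 24 mice was analysed. The authors deposited counts of reads per gene, without normalization, from poly(A)-selected, strand-specific libraries. The submitters' processing notes name cutadapt 4.8, FastQC 0.11.8, STAR 2.7.8a, RSEM 1.3.3, and GRCm38, and all deposited counts were whole numbers. Whether they are rounded estimates is not given in the sources used here. Genes with 0 counts throughout are absent, and the smallest total was 2. Totals of 19863304 to 21510054 per library set the precision.

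For this report, TMM scaling was followed by edgeR's quasi-likelihood test (edgeR 4.0.16, R 4.3.3, glmQLFit, robust, 1 fit of 4 groups, all 23972 genes). The Benjamini-Hochberg adjustment ran over the whole table, and genes passed at an adjusted p under 0.05. The study's methods used DESeq2 with a fold change of 1.5 as well, which was counted as an alternative. Log2 ratios used log2 CPM with a prior count of 2 and exact two-sided permutation tests in scipy 1.17.1. Exonic lengths and coordinates are from GENCODE M21, which holds 23926 of the genes, and promoters from RefSeq. The procedure was tested on simulated data.

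Members and lists were chosen with earlier results of these data known. Of each list, up to 4 genes per contrast were named, those that passed, averaged 0 or more in log2 CPM, and had the largest absolute log2 fold change. Where none passed, the gene with the largest change could be named. For each member, the 2 genes with the highest Pearson r were named, of which 1 is not reported here. Other genes were named after their values were seen, to show what each list holds. Each library has its own sample number in the labels. Where these are not separate mice, p-values measure only the spread between samples. The 67 pairs within groups all differed by more than sampling noise (chi-square per degree of freedom of at least 14.1), and none was merged. Alternatives were DESeq2 1.42.0, its size factors in edgeR, only the groups compared, filterByExpr, the number series and the length slope as covariates, leaving out libraries, and a prior count of 0.5.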

Additional observations from a re-analysis of the deposited data

Results flagged for a closer look

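In 99 combinations of a gene or ratio and a group of 4 to 10 libraries, 9 held a library that stood apart from the rest of its group by Dixon's test. Chance sets apart about 1 in 20 groups. None of the 5 members' own levels was among them. The log2 ratio of Adipor2 to Adipor1 was 2.74 in FGF21-treated Lmna ADKO library 3, against 1.93 to 2.29 in the others. Cish was 56.4 CPM in vehicle control library 3, against 11.0 to 28.1. Il6ra was 108.8 CPM in vehicle control library 6, against 30.6 to 46.1, and Acer2 was 18.2 CPM in the same library, against 11.1 to 13.7. In vehicle control library 1, Itih4 was 5625 CPM, against 2672 to 3189, and Fgb was 6673 CPM, against 3482 to 4605. Socs2 was 16.4 CPM in vehicle-treated Lmna ADKO library 4, against 4.35 to 6.43. Ucp2 was 237 CPM in vehicle-treated Lmna ADKO library 6, against 108 to 149. Acer2 was 34.0 CPM in FGF21-treated Lmna ADKO library 4, against 19.5 to 25.7.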

How the results depend on the processing

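The genotype difference in Lepr kept its direction and passed under each alternative run, from -2.86 to -2.35 on the log2 scale with vehicle and from -3.44 to -2.81 with FGF21, leaving out each library included. The other contrasts of the 5 genes passed under none of them, and where their direction changed the values lay near 0 or rested on few libraries. Without the 3 libraries whose levels fell with gene length, FGF21 against vehicle gave 0.020 for Lepr in Lmna ADKO livers and 0.023 for Adipor1 in controls, the log2 ratio of Socs3 to Stat3 gave 0.11 for genotype with vehicle and 0.19 for FGF21 in controls, and Lepr to Leprot gave -3.40 for genotype with FGF21 (exact permutation test, p = 0.0556, the smallest that these libraries allow). With the length slope as a covariate, Lepr gave 0.033 for FGF21 in Lmna ADKO livers and the interaction for Stat3 was -0.019, and with the number series as a covariate it was -0.19. Adipor1 for genotype with FGF21 was -0.0016 with DESeq2, -0.00028 with DESeq2 on the compared groups, and -0.0014 with DESeq2's size factors. Socs3 for FGF21 in Lmna ADKO livers was 0.087 among 4-digit sample numbers.

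Of the 100 listed genes, 28 passed for genotype with vehicle, 46 with DESeq2 on the compared groups, and 15 when a fold change above 1.5 was also asked. For genotype with FGF21, 6 passed, 15 with DESeq2, 13 with DESeq2 on the compared groups, 10 after filterByExpr, and 13 with the length slope as a covariate. For FGF21 in controls, 1 passed, 2 with DESeq2, 4 with DESeq2 on the compared groups, and 0 with either covariate or without the 3 libraries. The causes were not tested. Besides the losses given in the report, the number series as a covariate ended the calls of Ucp2 with vehicle (edgeR's adjusted p = 0.176), Myc (0.0872) and Cdh13 (0.0664) with FGF21, the 4-digit sample numbers alone ended that of Cdh13 with FGF21 (0.143), and leaving out the 3 libraries ended those of Myc (0.0705) and Scd1 (0.0552) with FGF21.

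Leaving out 1 library at a time, the log2 values ranged as follows. FGF21 against vehicle in Lmna ADKO livers gave -0.19 to 0.083 for Lepr and -0.23 to 0.031 for Socs3. FGF21 against vehicle in controls gave -0.068 to 0.022 for Adipor1 and -0.55 to 0.50 for Socs3. Genotype with FGF21 gave -0.035 to 0.061 for Adipor1, -0.11 to 0.090 for Adipor2, and -0.93 to 0.12 for Socs3. The interaction gave -0.16 to 0.042 for Adipor2, -0.095 to 0.16 for Stat3, and -0.61 to 0.44 for Socs3. The ratio of Adipor2 to Adipor1 gave -0.17 to 0.075 for genotype with FGF21, -0.19 to 0.057 for FGF21 in controls, and -0.28 to -0.16 for FGF21 in Lmna ADKO livers. The ratio of Socs3 to Stat3 gave -0.20 to 0.11 for genotype with vehicle, -0.65 to 0.25 with FGF21, and -0.62 to 0.28 for FGF21 in controls. The ratio of Lepr to Leprot gave -0.17 to 0.044 for FGF21 in Lmna ADKO livers. The count of listed genes that passed ranged from 4 to 12 for genotype with FGF21, with 12 without FGF21-treated Lmna ADKO library 7, from 0 to 1 for FGF21 in controls, from 0 to 1 for FGF21 in Lmna ADKO livers, and from 0 to 1 for the interaction. No paired analysis was possible because the replicate numbers only name the libraries and the labels pair no animals.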
